A study of Mus musculus with 151 samples.

Results

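Inner hair cells (IHCs), the sensory cells of the cochlea that pass sound on to the auditory nerve, were compared between postnatal day 30 (P30) and postnatal day 14 (P14). All 50 P30_WT IHC cells and all 55 P14_WT IHC cells of the series were used, 105 of its 151 cells. The other 46 cells, P14_iOHCs, carry a deletion of *Tbx2* and were left out of the comparison. Cells of both ages came from cochleae of C57BL/6 mice of the genotype vGlut3-P2A-iCreER/+; Ai9/+. This is a knock-in of an inducible Cre at 1 of the 2 alleles of *Slc17a8*, the gene of the vesicular glutamate transporter vGlut3, with a Tdtomato reporter, and cells of both ages share it. Tamoxifen at P2 and P3 is described for the P30 group, and the methods do not state separately how the P14 WT IHCs were induced. After enzymatic digestion, Tdtomato+ cells were picked by hand, so each library holds 1 cell, and full-length cDNA was made with a Smart-Seq HT kit. The labels name no mouse. Cells of 1 mouse share that mouse, so each age counts as 1 sample here, and no difference between ages has a test or a replicate check. The difference between ages and any difference between the mice or the picking sessions cannot be told apart.

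IHCs pass through a late phase of maturation around the onset of hearing. Immature IHCs fire calcium action potentials and receive direct efferent contacts. Mature IHCs respond to sound with graded potentials shaped by fast potassium currents and release glutamate at ribbon synapses, with otoferlin as the calcium sensor. P14 lies shortly after the onset of hearing in mice, and P30 is an age at which mouse hearing is adult-like.

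A library held 5692841 to 25035444 counts at P30 and 4326416 to 22622030 at P14. At each age the totals formed 2 separate sets that also follow the cell numbers in the labels. At P30, cells 1 to 23 made up the lower set, with totals up to 9484663, and cells 24 to 50 the upper set, from 13282457. At P14, cells 1 to 16 made up the lower set, up to 10267217, and cells 17 to 55 the upper set, from 11814928. The labels do not say what distinguishes these sets. Each gene was therefore compared within each of them. After thinning every cell to 4000000 counts, a P30 cell had 7712 ± 1068 genes with a count (mean ± SD over 50 cells) and a P14 cell 8242 ± 546 (55 cells). Mitochondrial genes took 9.35 ± 4.94% of the counts at P30 and 6.54 ± 3.24% at P14, and in the P30 cells of the lower set they took 12.4 ± 5.84%. *Xist*, the RNA made from the inactive X chromosome in females, exceeded the summed Y-linked counts at least 100 times in 31 of 50 P30 cells and in 23 of 55 P14 cells. The reverse held in 17 P30 cells and 32 P14 cells, and 1 P30 cell held 1733 counts of *Xist* and 5186 of Y-linked genes. The part of depth, mitochondrial share and sex in the differences below was not tested beyond the values given for each set.

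Of 55291 genes in the table, 12946 reached 5 counts in 10 or more of the 105 cells, and 11106 of these remained once predicted genes and pseudogenes were left out by symbol. The 183 genes just inside this filter, with exactly 10 such cells, had a median level of 2.28 CPM (counts per 1000000 of the cell's total), against 2.01 CPM for the 220 genes with 9. For each gene the difference is the log2 ratio of the mean CPM at P30 plus 1 to the mean CPM at P14 plus 1, which understates differences of genes at low levels. A gene was called higher or lower when it differed at least 2-fold in the same direction in both sets of totals. By this measure 248 genes, 2.23% of those compared, were higher at P30, and 428 genes, 3.85%, were lower. Higher genes thus made up 36.7% of the calls, but with DESeq2 size factors in place of totals they made up 64.2%, with 511 genes higher and 285 lower. That scaling moves the median ratio of all genes from −0.04 to 0.26, so the direction of a small difference depends on the scaling, and gene lists are read here against the median of all genes. Only 8 called genes, 0.072%, had 10th to 90th percentile ranges that did not overlap between ages, all of them lower at P30: *Kcnj13*, *Rprm*, *Fgf8*, *Slc34a3*, *Ckb*, *Tmem191c*, *Pvalb* and *Ormdl3*. None was higher.

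**Figure D1:**
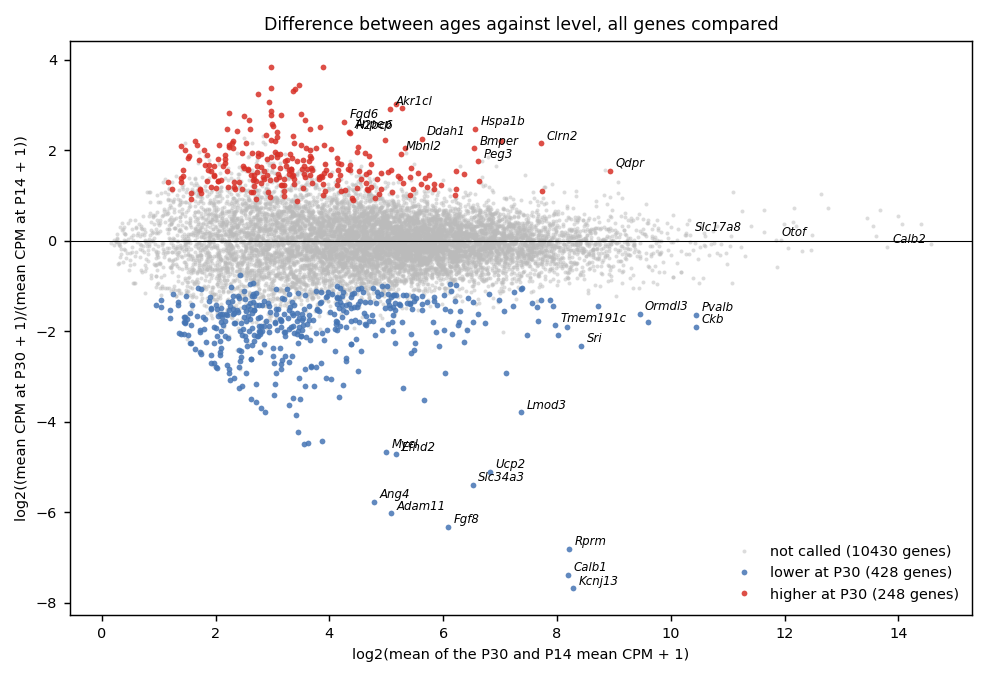
The log2 ratio of mean CPM at P30 to P14 (vertical axis) is plotted against the mean level of each of 11106 genes on a log2 scale (horizontal axis), with the 248 genes called higher at P30 in red, the 428 called lower in blue and the others in grey. The genes farthest from 0 are lower at P30 (*Kcnj13*, −7.68, and *Calb1*, −7.38), whereas the IHC genes *Otof*, *Slc17a8* and *Calb2* lie near 0. Colours would differ under DESeq2 scaling, with 511 genes higher and 285 lower.

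The calls kept only genes that differed in both sets of totals, and many genes did not. Of 1299 genes at least 2-fold higher at P30 in the lower set, 19.1% were also higher in the upper set and 11.4% were lower there. Over all genes, the upper set had 8.36% higher and 10.5% lower. Of 1749 genes lower at P30 in the lower set, 24.5% were lower in the upper set as well and 8.75% were higher. In 301 genes the sets differed at least 2-fold in opposite directions, but only 2 of these reached 200 CPM. Among the 2422 genes under 10 CPM at both ages, 85 were called higher and 145 lower, and 197 differed 2-fold in opposite directions. Pearson's correlation of the ratios of the sets was 0.0319 in these genes, so single calls at such levels, also those named below, are uncertain. Across the 4005 genes with at least 50 CPM at either age, Pearson's correlation of the ratios of the sets was 0.556, and across all 11106 genes it was 0.25. These correlations run across genes, which are not independent replicates.

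**Figure D2:**
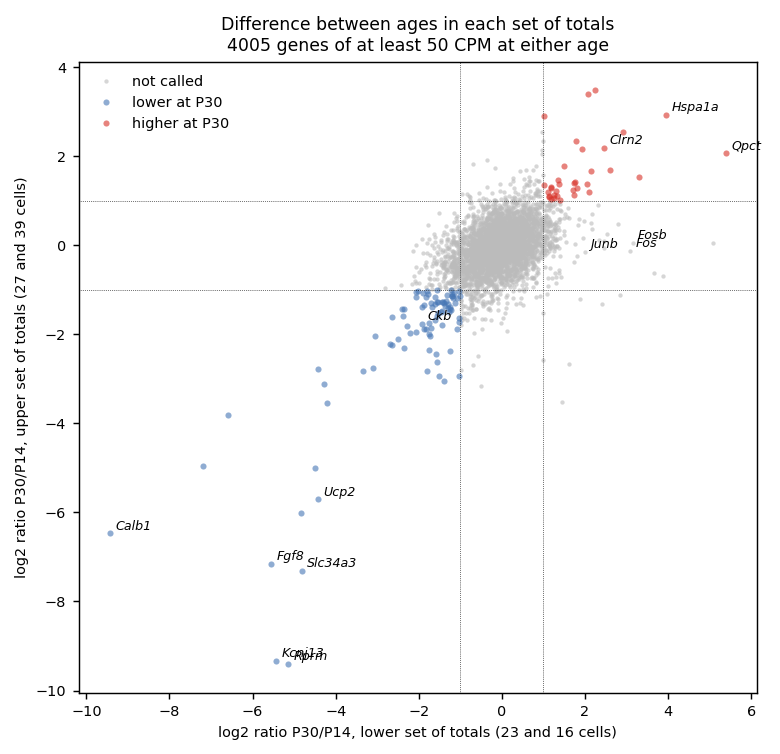
Log2 ratio P30/P14 in the lower set of totals (23 P30 and 16 P14 cells, horizontal axis) against that in the upper set (27 and 39 cells, vertical axis), for 4005 genes with at least 50 CPM at either age. Called genes (red higher, blue lower) lie beyond the dotted 2-fold lines in both sets, with *Kcnj13* at −5.44 and −9.34, whereas *Fos* (3.08 and −0.13) lies beyond the line in the lower set only.

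The clearest differences between ages were genes with a high level in P14 IHCs and few or no counts at P30. Among called genes found in at least 80% of the P14 cells and at least 2-fold lower by median, the 10 with the largest ratios were *Kcnj13*, *Rprm*, *Fgf8*, *Adam11*, *Ang4*, *Slc34a3*, *Ucp2*, *Efhd2*, *Mycl* and *Lmod3*. Of these 10 genes, a P14 cell held between 4 and 10 above 10 CPM, with a median of 9. A P30 cell held between 0 and 3, and 25 of 50 P30 cells held none. The genes were picked from these same cells for this direction, so these counts describe the choice and are not separate evidence.

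*Kcnj13* encodes the inwardly rectifying potassium channel Kir7.1 (mm10 chromosome 1, 87386363 to 87394729, minus strand). It ranged from 0.168 to 2533 CPM over the P14 cells, with a median of 368 CPM, and all 55 cells had a count. At P30 the median was 0, the highest cell had 94.6 CPM, and 3 of 50 cells had a count (6.00%, exact 95% interval 1.25 to 16.5%). After thinning to equal depth, 54 P14 cells and 3 P30 cells still had one. The mean was 618 ± 626 CPM (SD, n = 55 cells) at P14 and 2.01 ± 13.4 CPM (SD, n = 50 cells) at P30, a log2 ratio of −7.68. Most of the P30 level came from the 1 cell at 94.6 CPM. Summed over cells the level at P14 was 628 times that at P30 (95% interval 585 to 675), an interval that takes reads as independent. The reads carry no molecular identifiers and amplified copies are not independent, so it does not cover the counting error of molecules. Intervals of shares of cells take the picked cells as independent draws, and neither kind covers the spread between mice. The gene lies within *Gigyf2*, which is on the other strand, and whether the counting used strand is not given in the sources used here.

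*Rprm*, for reprimo, a small protein linked to arrest of the cell cycle downstream of p53, is a gene of chromosome 2 (54084093 to 54085552, minus strand). It ranged from 0 to 1959 CPM at P14 (median 426 CPM, a count in 52 of 55 cells) and from 0 to 133 CPM at P30 (median 0, a count in 9 of 50 cells), with a log2 ratio of −6.80. *Fgf8*, a secreted growth factor that marks IHCs in the developing cochlea, had up to 450 CPM at P14 (median 97.9 CPM, 50 of 55 cells) and up to 24.7 CPM at P30 (median 0, 5 of 50 cells). Its means were 134 ± 115 CPM at P14 and 0.691 ± 3.71 CPM at P30, a log2 ratio of −6.32. Both genes were thus near 0 in most P30 cells and spread over a wide range at P14. *Slc34a3*, a sodium-dependent phosphate transporter, had 178 ± 156 CPM at P14 with a count in 54 of 55 cells. At P30 it had 3.26 ± 18.5 CPM with a count in 3 of 50 cells. Nearly all of the P30 mean came from 2 cells, the higher of which had 126 CPM. The few P30 cells that held *Kcnj13*, *Rprm*, *Fgf8* or *Slc34a3* above 10 CPM belonged to the lower set of totals.

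*Ang4*, a secreted ribonuclease of the angiogenin family, had no count in any P30 cell (0 of 50, which allows a share of cells with a count of up to 7.11% if the cells are taken as independent draws) and 46464 counts over 45 of the 55 P14 cells, with a median of 41.1 CPM. Against a floor of 3 counts over the P30 group it was at least 12800-fold lower at P30 in reads. Amplified reads without molecular identifiers are not molecules, so this is no bound on transcripts. Its log2 ratio of mean levels was −5.765. Its near-identical relatives can share reads with it, so its identity is uncertain. *Adam11*, a protein of the ADAM family without protease activity, had 65.8 ± 87.0 CPM at P14 (44 of 55 cells) and no P30 cell above 0.584 CPM. *Ucp2*, a carrier of the inner mitochondrial membrane, had a median of 160 CPM at P14 and of 0 at P30, where 14 of 50 cells had a count, and it overlaps *Dnajb13* on the other strand. *Efhd2*, a calcium-binding protein with EF hands, had means of 68.3 CPM and 1.64 CPM at P14 and P30. *Mycl*, a transcription factor of the MYC family, had means of 60.6 CPM and 1.42 CPM. *Lmod3*, a leiomodin that nucleates actin filaments, was found in all 55 P14 cells (median 276 CPM, lowest 21.4 CPM) but in only 23 of 50 P30 cells (median 0, highest 227 CPM). Of all 50 P30 cells, 38 lay below the lowest P14 cell.

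A further group of lower genes kept a high level at P30. *Ckb*, the brain-type creatine kinase that buffers ATP (chromosome 12, 111669361 to 111672338, minus strand), ranged from 1199 to 3962 CPM at P14 with a median of 2046 CPM. At P30 it ranged from 25.98 to 1686 CPM with a median of 524 CPM, and 48 of 50 cells lay below the lowest P14 cell. The ratio was −1.89, and it was −1.93 in the lower and −1.77 in the upper set. *Pvalb*, the calcium buffer parvalbumin, had 2099 ± 400 CPM at P14 and 677 ± 582 CPM at P30, and 40 P30 cells lay below the lowest P14 cell, although the highest P30 cell, at 2734 CPM, was near the highest at P14, 2847 CPM. *Ormdl3*, a regulator of sphingolipid synthesis in the endoplasmic reticulum, had 1053 ± 414 CPM at P14 and 345 ± 191 CPM at P30. *Tmem191c*, a transmembrane protein whose role is not well known, had 391 ± 176 CPM and 106 ± 89.0 CPM, and it overlaps *Pi4ka* on the other strand. All 4 genes were detected in all 55 P14 cells and in at least 48 of the 50 P30 cells. They thus differed by level and not by presence.

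Among the other called genes of highest level, picked here after their values were seen, *Car7*, a cytosolic carbonic anhydrase, had 1202 ± 537 CPM at P14 and 344 ± 186 CPM at P30. *Phgdh*, the first enzyme of serine synthesis, had 614 ± 376 CPM and 225 ± 246 CPM. *Laptm4b*, a protein of lysosomal membranes, had 456 ± 203 CPM and 121 ± 76.1 CPM. In these 3 genes the ranges of the cells overlapped between ages, with 14, 15 and 4 P30 cells respectively below the lowest P14 cell.

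**Figure D3:**
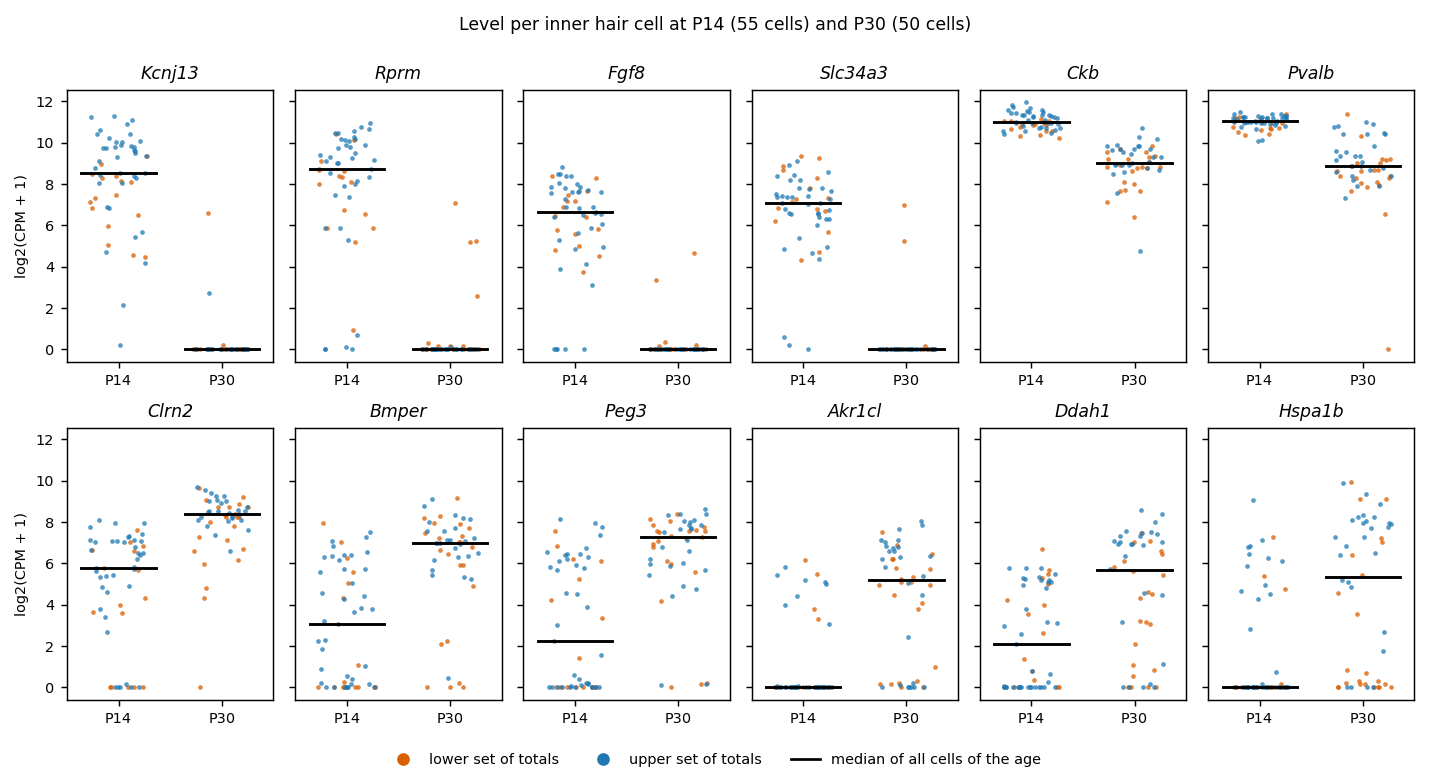
Level of 12 genes in single IHCs as log2(CPM + 1) at P14 (55 cells) and P30 (50 cells), each point 1 cell, orange for the lower and blue for the upper set of totals, with the median of each age as a black line. The medians of *Kcnj13*, *Rprm*, *Fgf8* and *Slc34a3* are at 0 at P30, *Ckb* and *Pvalb* are lower but detected in nearly all cells, and the 6 genes of the lower row are higher at P30 with many cells overlapping.

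Genes higher at P30 overlapped more between the ages. Among 29 called genes found in at least 80% of the P30 cells and at least 2-fold higher by median, the 10 with the largest ratios were *Akr1cl*, *Fgd6*, *Hspa1b*, *Anpep*, *H2bc6*, *Ddah1*, *Clrn2*, *Bmper*, *Mbnl2* and *Peg3*. The same criteria held for 112 lower genes. Of the 10 higher genes a P30 cell held 3 to 10 above 10 CPM (median 7) and a P14 cell 0 to 7 (median 3). Here too the genes were picked from these same cells for this direction.

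*Clrn2* (chromosome 5, 45453751 to 45464149, plus strand) encodes clarin 2, a membrane protein needed to maintain the hair bundle. It ranged from 0 to 819 CPM at P30, with a median of 332 CPM, and from 0 to 273 CPM at P14, with a median of 54.1 CPM, and 34 of 50 P30 cells lay above the highest P14 cell. The means were 346 ± 201 CPM and 76.5 ± 73.5 CPM, with a log2 ratio of 2.16 that was 2.46 in the lower and 2.19 in the upper set. Summed over cells the level at P30 was 4.54 times that at P14 (interval 4.50 to 4.58 if reads are taken as independent). It had the clearest separation of the 10, yet 45 of 55 P14 cells already had a count.

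*Akr1cl*, an aldo-keto reductase, was found in 42 of 50 P30 cells (84.0%, interval 70.9 to 92.8%) and in 14 of 55 P14 cells (25.5%, interval 14.7 to 39%). At equal depth the shares were 78% and 21.8%. Its means were 58.4 ± 65.5 CPM and 6.84 ± 15.8 CPM, and 19 P30 cells lay above the highest P14 cell. *Bmper*, a secreted modulator of bone morphogenetic protein signalling, had 150 ± 132 CPM at P30 and 35.5 ± 54.7 CPM at P14. *Peg3*, an imprinted zinc finger gene expressed from the paternal allele, had 150 ± 108 CPM and 43.7 ± 67.6 CPM. At P14 both had a wide spread with medians of 7.35 CPM and 3.76 CPM, so that part of the P14 cells already reached the level at P30. *Ddah1*, which degrades the nitric oxide synthase inhibitor dimethylarginine, had 80.5 ± 90.8 CPM and 15.99 ± 21.9 CPM, and its ratio was 1.00 in the lower and 2.91 in the upper set.

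Of the remaining genes, *Fgd6*, an activator of the GTPase Cdc42, had means of 31.9 CPM at P30 and 4.30 CPM at P14. *Anpep*, the membrane peptidase aminopeptidase N, had 33.4 CPM and 5.48 CPM. *Mbnl2*, a splicing regulator, had 59.5 CPM and 14.9 CPM. These 3 genes had a median under 0.2 CPM at P14. *H2bc6*, a replication-type histone gene with near-identical copies, had 33.5 CPM and 5.60 CPM with ratios of 4.61 in the lower and 1.13 in the upper set, and its reads cannot be assigned to it with certainty.

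Among other called genes with a high mean CPM, also picked after their values were seen, *Qdpr*, the reductase that regenerates tetrahydrobiopterin, was found in all cells of both ages. It had 732 ± 418 CPM at P30 and 249 ± 146 CPM at P14, and 23 of 50 P30 cells lay above the highest P14 cell, at 693 CPM. *Ganc*, a glucosidase whose gene overlaps *Capn3* and *Tmem87a*, had 291 ± 176 CPM and 134 ± 127 CPM. *Slc5a3*, a myo-inositol transporter whose gene overlaps *Mrps6*, had 121 ± 111 CPM and 42.6 ± 58.2 CPM. *Adamts6*, a secreted metalloprotease, and *Lpin1*, a phosphatidate phosphatase, had ratios of 1.33 and 1.55. *Qpct*, the glutaminyl cyclase that modifies the start of peptides, had a count in 36 of 50 P30 cells and 15 of 55 P14 cells. Its means of 211 ± 410 CPM and 44.8 ± 215 CPM came mostly from a part of the cells, with medians of 1.45 CPM and 0. *Gstm1*, a glutathione transferase, was found in 37 of 50 P30 cells and 11 of 55 P14 cells, with means of 63.0 CPM and 6.88 CPM and a ratio of 3.02.

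The markers of the IHC state were mostly close between ages. Of 6 markers, 5 were not called. *Otof* (otoferlin) had 3704 ± 1028 CPM at P30 and 3657 ± 925 CPM at P14, with ratios of −0.40 in the lower and 0.27 in the upper set. *Slc17a8*, of which 1 allele carries the Cre, had 1344 ± 539 CPM and 1230 ± 317 CPM. *Calb2* (calretinin) had 13666 ± 5086 CPM and 14956 ± 3923 CPM. Each of these genes differed between ages by less than the spread between cells. *Slc7a14*, a lysosomal transporter of IHCs, had 552 ± 306 CPM and 399 ± 177 CPM, and *Tbx2*, the transcription factor studied here, had 193 ± 103 CPM and 260 ± 127 CPM with ratios of −0.89 in the lower and −0.16 in the upper set. The sixth marker, *Fgf8*, was lower at P30 as described above. *Myo7a*, an unconventional myosin of the hair bundle singled out after its values were seen, had 739 ± 243 CPM and 383 ± 222 CPM, with a ratio of 0.95 that was just under 2-fold in both sets, and so was not called.

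Markers of outer hair cells (OHCs), the electromotile hair cells, were also read in these cells. The OHC-defining genes *Slc26a5* (prestin) and *Ikzf2* (helios) did not pass the filter on counts, with means of 0.00529 CPM and 0.0162 CPM at P30 and of 0.146 CPM and 0.00108 CPM at P14. *Sri*, the calcium-binding protein sorcin, ranged from 0 to 475 CPM at P30 (median 74.4 CPM) and from 123 to 1353 CPM at P14 (median 566 CPM), with a ratio of −2.32, and 34 P30 cells lay below the lowest P14 cell. It was the 1 called OHC marker of the 5 compared. *Strip2* had 68.7 ± 81.7 CPM and 178 ± 122 CPM, with ratios of −0.83 in the lower and −1.68 in the upper set, which left it just outside the call. *Ocm*, the calcium buffer oncomodulin, had 891 ± 1163 CPM and 744 ± 1046 CPM, with cells from 0 to 3866 CPM at P30 and from 0 to 5007 CPM at P14. *Aqp11*, a water channel, and *Lbh*, a transcription cofactor, had means of 9.79 CPM and 2.93 CPM at P30 and of 24.6 CPM and 4.00 CPM at P14.

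The study drew up lists of genes higher in P30 IHCs than in OHCs and the reverse. Of its IHC genes 335 could be compared, and 24 of them (7.16%, against 2.23% of all genes) were higher and 9 (2.69%, against 3.85%) lower at P30, with a median ratio of 0.11. Of its OHC genes 97 could be compared, and 0 were higher and 19 (19.6%, against 3.85% of all genes) lower, with a median of −0.58. The lists were chosen partly on these P30 cells and on the difference from OHCs, so the counts are not independent evidence of a direction. The OHC list includes *Kcnj13*, *Calb1*, *Efhd2*, *Lmod3*, *Sri*, *Kcnn2* and *Atp2b2* among its lower genes. *Calb1*, the calcium buffer calbindin, was carried unevenly at P14, from 0 to 5821 CPM with a median of 45.8 CPM and a count in 41 of 55 cells. At P30 it was found in 6 of 50 cells, 1 of which had 121 CPM. The IHC list includes *Akr1cl*, *Hspa1a*, *Hspa1b*, *Anpep*, *Ddah1*, *Qpct*, *Bmper*, *Lpin1* and *Qdpr* among its higher genes.

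Genes of glutamate release were mostly not called. Counts in this and the following lists stand against 2.23% higher and 3.85% lower among all genes, and in lists of this size a few members more or less are not a result about the list. Of 30 members compared, 1 was called higher (3.33%) and 3 lower (10%), with a median ratio of −0.02 that was 0.31 with DESeq2 size factors. *Otof* had the highest mean CPM of the list, a unit that is not corrected for transcript length, and its values are given above. *Vamp1*, a vesicle SNARE, had 16.98 ± 38.2 CPM at P30 and 4.20 ± 11.5 CPM at P14, with a count in 22 of 50 and 24 of 55 cells. *Stx1a*, a plasma membrane SNARE of conventional synapses, had 8.25 ± 27.1 CPM at P14 in 12 of 55 cells and 0.336 ± 2.38 CPM at P30 in 1 of 50 cells. *Syt7*, a calcium sensor of slow release, had 32.4 ± 42.8 CPM at P14 and 12.3 ± 19.5 CPM at P30.

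Among 17 potassium channel genes, 0 were called higher and 4 lower (23.5%, against 3.85% of all genes), with a median of −0.49 (−0.11 with DESeq2 size factors). *Kcna10*, a voltage-gated channel with the highest mean CPM of the list, had 1343 ± 523 CPM at P30 and 1395 ± 636 CPM at P14. *Kcnma1*, the BK channel that carries the fast potassium current of mature IHCs, was singled out after its values were seen. It had 329 ± 146 CPM and 215 ± 100 CPM (ratio 0.61) and was not called. *Kcnn2*, the SK2 channel that works with efferent receptors, was found in all 55 P14 cells with 79.9 ± 68.3 CPM and in 38 of 50 P30 cells with 33.1 ± 43.8 CPM. *Kcnmb2*, an accessory subunit of BK channels, had 17.8 CPM at P14 and 0.700 CPM at P30. *Kcnb2*, a delayed rectifier, had 3 counts in all at P30 against 7022 at P14. The last 2 genes were found in only 20 and 11 of the 55 P14 cells. The remaining lower gene was *Kcnj13*, described above. The list was chosen with earlier results of these data known, so its share of lower genes is not independent evidence. *Chrna9*, a subunit of the efferent acetylcholine receptor, had 77.7 ± 88.6 CPM and 151 ± 187 CPM, but ratios of 0.13 in the lower and −1.93 in the upper set, and it was not called. *Cacna1d*, the pore of the calcium channel at IHC ribbons and likewise singled out, had 262 ± 181 CPM at P30 and 442 ± 233 CPM at P14. Its ratio of −0.75 was −0.71 in each set, and none of the 8 calcium channel genes compared was called.

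Genes of calcium handling were also compared. Of 15 calcium-binding proteins, 3 were lower (20%, against 3.85% of all genes) and 0 higher (median −0.07, and 0.23 with DESeq2 size factors), namely *Calb1*, *Sri* and *Pvalb*. *Cabp2*, the calcium-binding protein that limits inactivation of the IHC calcium channel, had 2294 ± 648 CPM and 2520 ± 526 CPM. It differed by less than the spread between cells. Of 12 pumps and exchangers, 2 were lower. *Slc8a1*, a sodium-calcium exchanger, had 12.3 ± 26.5 CPM at P30 and 72.6 ± 68.2 CPM at P14, and *Atp2b2*, the calcium pump of hair bundles, had 49.1 ± 48.2 CPM and 97.9 ± 68.4 CPM, with ratios just past 2-fold in each set (−1.08 and −1.19). *Atp2a3*, a pump of the endoplasmic reticulum, had 1463 ± 441 CPM and 1816 ± 610 CPM.

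Of 34 hair bundle genes, 1 was higher, *Clrn2* (2.94%, near the 2.23% of all genes), and 4 were lower (11.8%, against 3.85%). The lower genes included *Myo3b*, *Pdzd7* and *Myo1h*. *Myo3b*, a myosin of stereocilia tips, had 2 counts in all at P30 against 8475 at P14. *Pdzd7*, a protein of the ankle links of developing bundles, had a mean of 4.01 CPM at P30 and of 17.1 CPM at P14. *Myo1h*, a class I myosin, had 11.03 CPM and 31.9 CPM. These 3 genes were detected in 20 to 44 of the 55 P14 cells. *Myo6*, the bundle gene with the highest mean, had 1852 ± 447 CPM and 1585 ± 350 CPM. The list's median was −0.29 and, with DESeq2 size factors, 0.02. None of the 10 mechanotransduction genes was called, and *Cib2*, which binds the transduction channel, had 3009 ± 705 CPM at P30 and 4499 ± 895 CPM at P14 (ratio −0.58).

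No transcription factor of hair cells was called among 22 compared. *Pou4f3*, which hair cells need to survive, had 617 ± 291 CPM at P30 and 591 ± 208 CPM at P14. *Bhlhe40*, a repressor that acts on the circadian clock, was the 1 lower gene of 18 clock genes (4.73 CPM and 22.5 CPM), and *Rora*, a nuclear receptor of the same list, had 883 ± 426 CPM and 673 ± 299 CPM. Among inhibitors of the cell cycle, which keep hair cells from dividing, 2 of 11 were lower. *Cdkn1a* (p21), a target of p53, was found in all 55 P14 cells at 42.7 to 749 CPM and in 38 of 50 P30 cells at up to 430 CPM, with medians of 250 CPM and 40.8 CPM, and 26 P30 cells lay below the lowest P14 cell. The other was *Rprm*. *Cdkn2d* (p19Ink4d), which has the highest mean of the list, had 652 ± 226 CPM at P30 and 863 ± 264 CPM at P14.

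Genes of the heat shock response, mostly chaperones that bind unfolded proteins, were compared as a further list. Of 20 compared, 3 were called higher (15%, against 2.23% of all genes) and 0 lower, and 18 of 20 had a ratio above 0, against 5217 of all 11106 genes, with a median of 0.25 that was 0.80 in the lower and 0.12 in the upper set, and 0.56 with DESeq2 size factors. The called genes were *Hspa1a*, *Hspa1b* and *Bag3*. *Hspa1a* and *Hspa1b* encode the inducible HSP70 from adjacent genes with near-identical transcripts, so reads can move between them and each value alone is uncertain. The start-proximal promoters of the 3 genes are shown because heat shock factor binds repeats of the letters nGAAn in such promoters. They are the 250 bases before the RefSeq start (GRCm38.p6), 5′ to 3′ on the strand of the gene, and capitals mark GAANNTTC.
Hspa1a, chr17:34972157-34972406, minus strand: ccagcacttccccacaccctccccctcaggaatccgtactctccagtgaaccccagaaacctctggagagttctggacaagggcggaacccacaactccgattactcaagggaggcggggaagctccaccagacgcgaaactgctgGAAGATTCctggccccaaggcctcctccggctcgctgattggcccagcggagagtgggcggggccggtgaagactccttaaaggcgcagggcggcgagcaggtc
Hspa1b, chr17:34959239-34959488, minus strand: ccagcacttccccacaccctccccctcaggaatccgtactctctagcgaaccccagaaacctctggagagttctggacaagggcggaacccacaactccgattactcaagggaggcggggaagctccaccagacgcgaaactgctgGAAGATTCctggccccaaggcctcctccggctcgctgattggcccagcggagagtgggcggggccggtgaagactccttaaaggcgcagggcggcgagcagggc
Bag3, chr7:128523333-128523582, plus strand: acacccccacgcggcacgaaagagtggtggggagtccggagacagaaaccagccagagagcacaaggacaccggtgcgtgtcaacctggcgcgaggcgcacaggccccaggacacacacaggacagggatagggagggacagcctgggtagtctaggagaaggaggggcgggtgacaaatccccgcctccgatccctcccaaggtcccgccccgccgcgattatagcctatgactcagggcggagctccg

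The motifs GAANNTTC and TTCNNGAA, which read the same on both strands and can overlap each other, were searched in the RefSeq promoters of all genes. The window was the 250 bases before the start. GAANNTTC stood in 6.69% and either motif in 12.8% of 32851 promoters, and 14.5% of 27025 genes had either motif in at least 1 promoter. *Hspa1a* and *Hspa1b* held GAANNTTC once, starting 104 bases before the start, in promoter stretches that are equal in 247 of 250 bases. *Bag3* held neither motif in this window. Of the 23 genes listed, 18 had a promoter in the table and 9 had either motif, so that a match did not set the 3 called genes apart from the rest of the list. A match is a description of letters and not of binding.

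*Hspa1b* ranged from 0 to 971 CPM at P30 (median 39.7 CPM, a count in 40 of 50 cells) and from 0 to 542 CPM at P14 (median 0, 19 of 55 cells), with a ratio of 2.91 in the lower and 2.55 in the upper set. *Hspa1a* had 67.8 ± 104 CPM at P30 and 7.93 ± 23.7 CPM at P14, with a count in 38 of 50 and 16 of 55 cells. *Bag3*, a cochaperone of HSP70, was found in 11 of 50 and 2 of 55 cells, at means of 4.18 CPM and 0.189 CPM. Its ratio of 2.12 was 0 by median CPM and −0.49 in the cells with Y and no *Xist* counts, so its direction depended on the cells used. The groups overlapped in all 3 genes, with cells at 0 at both ages. *Hsp90aa1*, an abundant cytosolic HSP90, had 5730 ± 1529 CPM at P30 and 3444 ± 1052 CPM at P14, with ratios of 1.25 in the lower and 0.49 in the upper set, so it was not called. The 3 called genes were higher in both sets, as the rule for a call requires, and the size of the list's difference depended on the set.

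Immediate-early genes, which are induced within minutes of a stimulus, mostly had higher levels at P30 in the lower set of totals, and none of 17 was called. Their median ratio was 1.23 in the lower set and −0.13 in the upper set. Of the 17 genes, 4 had a ratio above 0 in both sets, whereas *Nr4a1* and *Nr4a2* were below 0 in the lower set. *Fos*, picked after its values were seen, had a mean of 1202 CPM in the 23 P30 cells and 141 CPM in the 16 P14 cells of the lower set. In the upper set it had 243 CPM in 27 P30 cells and 266 CPM in 39 P14 cells. *Egr1*, *Fosb* and *Junb* were also picked after their values were seen. *Egr1* likewise had 1386 CPM and 392 CPM in the lower set and 237 CPM and 280 CPM in the upper set. *Fosb* had ratios of 3.15 and 0.06, and *Junb* of 2.00 and −0.14. By median, *Fos* was at 1181 CPM at P30 and at 0.149 CPM at P14 in the lower set, and at 176 CPM and 169 CPM in the upper set. For *Fos*, the lower set thus held both the higher median at P30 and the lower one at P14, whereas *Egr1* at P14 had its higher mean in the lower set. Its P30 cells also had the higher mitochondrial share, and the part of that share was not tested. Endoplasmic reticulum stress genes had medians of 0.44 and −0.31 and antigen presentation and interferon genes of 1.46 and −0.24 in the 2 sets, with 0 higher and 0 lower of 22, and 0 higher and 1 lower of 11. *Jun*, *Hspa5* and *Ifit1*, the members with the highest means of the 3 lists, had ratios of 0.75, 1.03 and 1.93 in the lower set and of −0.27, −0.22 and 0.54 in the upper set.

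**Figure D4:**
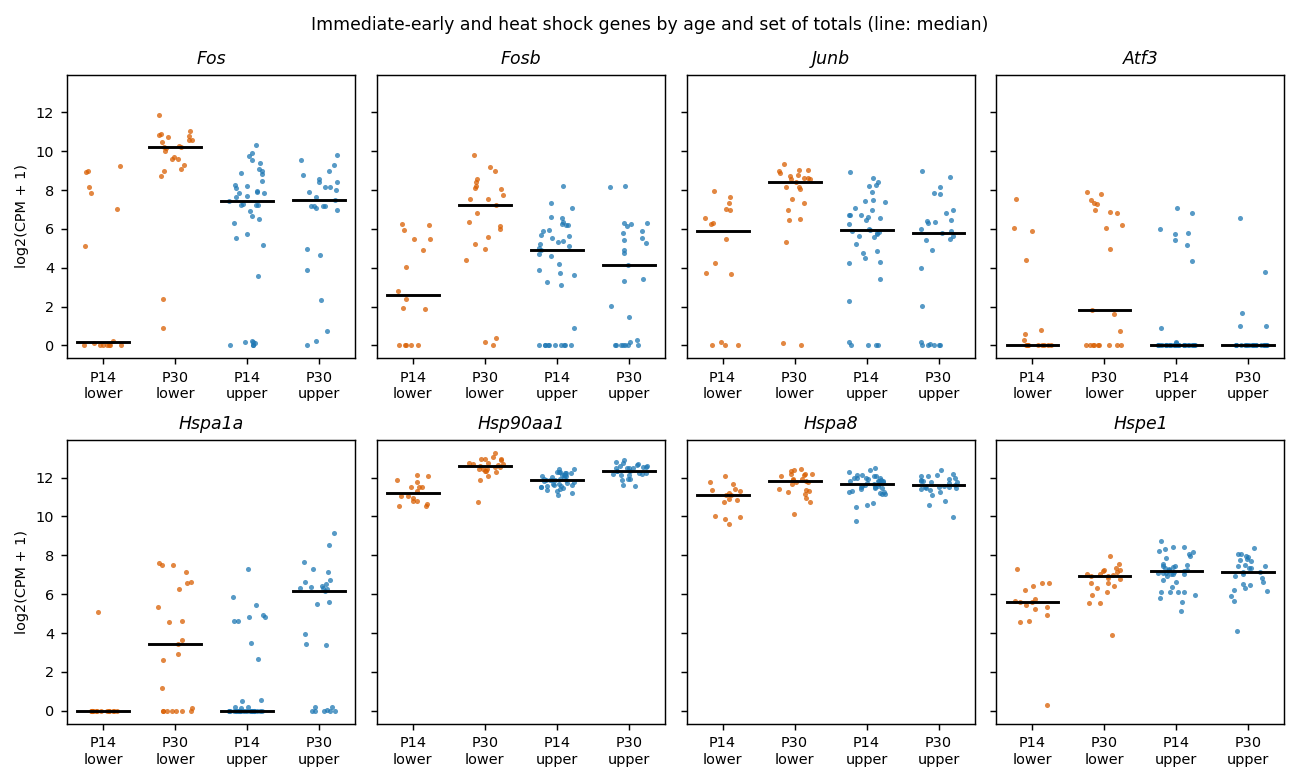
Level of 4 immediate-early genes (upper row) and 4 heat shock genes (lower row) in single IHCs as log2(CPM + 1), split by age and set of totals, each point 1 cell and the line the median (lower set, 16 P14 and 23 P30 cells; upper set, 39 and 27). *Fos* is higher at P30 in the lower set (ratio 3.08) and not in the upper set (−0.13), whereas *Hspa1a* is higher at P30 in both (3.96 and 2.94).

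Nuclear and mitochondrial genes of respiration lay on different sides of the median of all genes. Of 77 nuclear genes of oxidative phosphorylation 70 had a ratio below 0, against 5889 of all 11106 genes. In both sets 53 of the 77 were below 0, against 3516 of all 11106 genes. The list's median was −0.34, −0.42 in the lower and −0.20 in the upper set, and −0.02 with DESeq2 size factors, which place the median of all genes at 0.26. Nearly all members differed by less than 2-fold, and 1 was called. *Sdhd*, a subunit of succinate dehydrogenase, had 80.3 ± 86.0 CPM at P30 and 218 ± 111 CPM at P14 (medians 62.7 CPM and 216 CPM). *Atp5b*, the catalytic subunit of ATP synthase, had 988 ± 406 CPM and 1891 ± 568 CPM, with a ratio of −0.94 that stayed just under 2-fold in each set (−0.90 and −0.91). Of 16 genes of the mitochondrial genome, 14 had a ratio above 0, against 5217 of all 11106 genes, with medians of 0.38 and 0.32 in the 2 sets. All 16 are part of the mitochondrial share of a cell, so they are not independent of one another. *mt-Cytb*, a subunit of complex III, had 19353 ± 9122 CPM at P30 and 13202 ± 5661 CPM at P14. A higher mitochondrial share also lowers the CPM of all other genes, and without mitochondrial genes in the totals the median ratio of all genes was 0.00.

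Other metabolic lists also had medians below that of all genes. Of 19 glycolysis genes, 2 were lower, with a list median of −0.31 that was 0.03 with DESeq2 size factors. *Eno1* (enolase) ranged from 0 to 400 CPM at P30 (median 112 CPM) and from 53.9 to 729 CPM at P14 (median 345 CPM), and its neuronal relative *Eno2* had means of 2.53 CPM and 28.3 CPM. *Gapdh* had 1496 ± 869 CPM and 1619 ± 482 CPM. None of 21 genes of the citric acid cycle was called (median −0.31, and 0.04 with DESeq2 size factors), with *Mdh1* at 927 ± 370 CPM and 1060 ± 437 CPM. In cholesterol synthesis 1 of 24 was lower, *Fdps* (3.28 CPM and 17.4 CPM), with a median of −0.40 (−0.02 with DESeq2 size factors), and *Hsd17b7* had 499 ± 239 CPM and 491 ± 218 CPM. Among 27 antioxidant genes *Gstm1* was higher, and *Gclc*, a subunit of the ligase that makes glutathione, and *Glrx* (glutaredoxin) were lower. *Gclc* had means of 20.2 CPM at P30 and 47.3 CPM at P14, and *Glrx* of 3.26 CPM and 14.9 CPM. *Prdx2*, a peroxiredoxin, had 571 ± 217 CPM and 1077 ± 312 CPM and was not called (ratio −0.91). None of 27 lysosome and autophagy genes was called, with a median of −0.29 (0.02 with DESeq2 size factors), although *Map1lc3a*, which coats autophagosomes, had 387 ± 168 CPM and 741 ± 167 CPM.

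Protein synthesis and turnover genes differed little. Of 87 cytosolic ribosomal proteins 1 was higher, *Rpl36al* (7.56 CPM and 3.06 CPM), with a median of 0.03 (0.32 with DESeq2 size factors), and *Rpl41* had 1037 ± 291 CPM and 924 ± 239 CPM. Of 43 proteasome genes 1 was lower, *Psmb10*, a subunit of the immunoproteasome (8.38 CPM and 20.8 CPM), with a median of −0.17 (0.13 with DESeq2 size factors). In the list of microtubule and growth genes, 1 of 20 was higher, *Tuba1b*, an alpha tubulin with near-identical copies (102 ± 82.0 CPM and 45.6 ± 37.1 CPM, found in all cells), and 1 was lower, *Marcks*, a substrate of protein kinase C (0.358 CPM and 4.29 CPM). *Dpysl2*, which binds tubulin, had 999 ± 292 CPM and 723 ± 227 CPM. Among 7 genes of the thyroid and glucocorticoid response none was called. *Thrb*, the thyroid hormone receptor needed for hearing and named here after its values were seen, had 23.3 ± 40.3 CPM and 68.7 ± 66.2 CPM, with ratios of −0.58 and −2.49, and *Sgk1*, a kinase induced by glucocorticoids, had 153 ± 140 CPM and 175 ± 159 CPM.

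**Figure D5:**
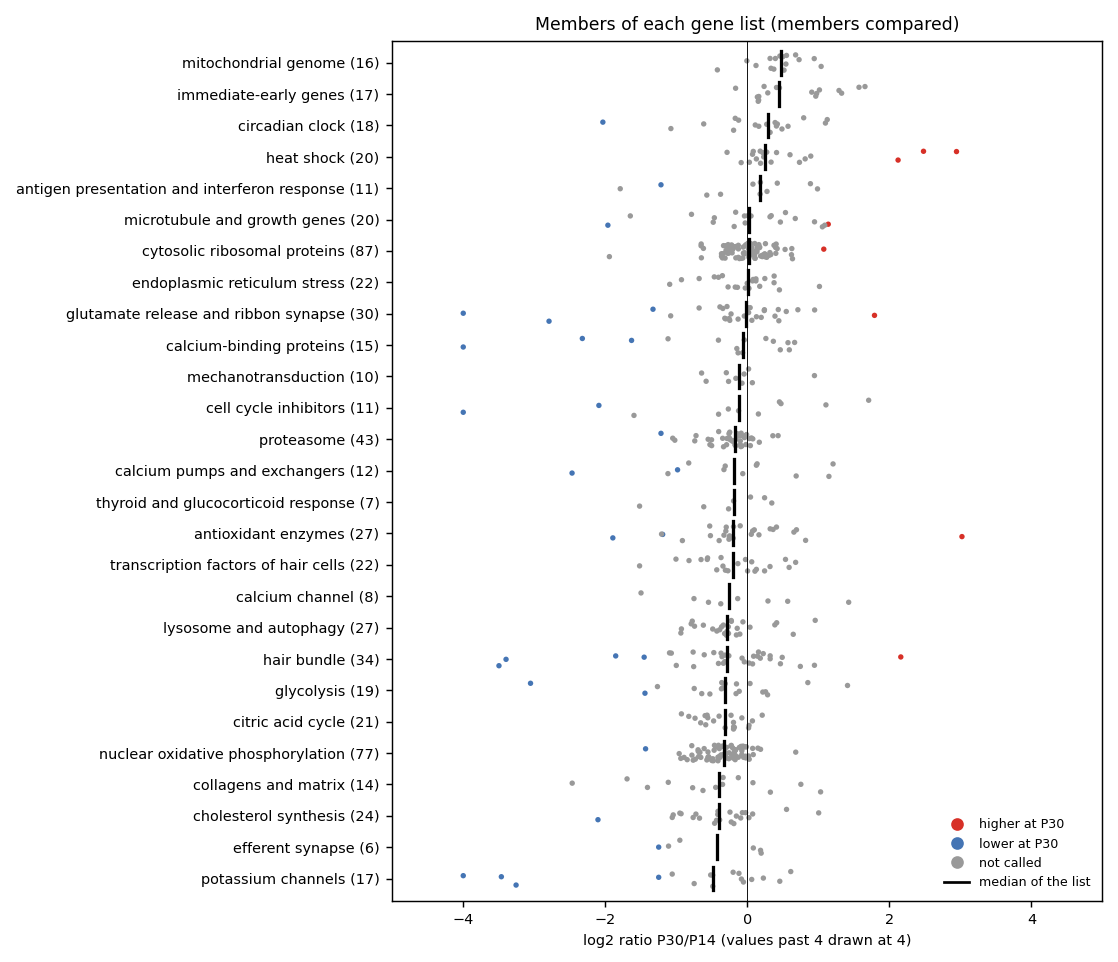
Log2 ratio P30/P14 of each member of 27 gene lists (horizontal axis, values past 4 drawn at 4), each point 1 gene, red for called higher, blue for called lower and grey for not called, with the list's median as a black line and the number of members compared in parentheses. Medians lie between −0.49 for potassium channels and 0.48 for the mitochondrial genome, and single called members lie far from them. With DESeq2 size factors the median of all genes would be 0.26 instead of −0.04.

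Markers of other cells were read in the same libraries. Of 18 supporting cell markers 11 passed the filter, and 1 of them, *Hey2*, a target of Notch signalling, was called higher, with 18.3 ± 38.2 CPM in 22 of 50 P30 cells and 0.868 ± 6.03 CPM in 3 of 55 P14 cells. Without *Fbxo2*, which these hair cells express at a high level, the summed level of the list had a median of 92.4 CPM at P30 (0 to 866) and of 17.9 CPM at P14 (0 to 2191). In the lower set the medians were 108 CPM and 4.99 CPM, and in the upper set 63.0 CPM and 50.2 CPM. Glial markers had a median sum of 5.62 CPM (0 to 127) at P30 and 2.44 CPM (0 to 224) at P14 over the 7 genes listed, of which 2 passed the filter. Fibroblast markers had sums with medians of 0.457 CPM and 0.224 CPM, and the highest sums were 489 CPM and 771 CPM. Immune markers had median sums of 0.0884 CPM and 16.7 CPM, and *C1qb*, a complement gene of macrophages, was called lower, with a count in 3 of 50 P30 cells and 38 of 55 P14 cells. Of 4 blood markers compared, *Hba-a2*, a globin gene with a near-identical copy, was called higher (7.61 CPM and 3.52 CPM). None of 14 collagen and matrix genes was called, and *Sparc*, with the highest mean, had 120 ± 219 CPM and 261 ± 579 CPM. The part of RNA from these cells in the differences between ages was not tested.

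The spread between cells of the same age was larger at P30 than at P14 in most genes. Over 3167 genes with at least 50 CPM at both ages, the median ratio of SD to mean over cells was 0.77 at P30 and 0.66 at P14, and it was larger at P30 in 77.6% of the genes. The same held in 64.8% of the genes in the lower set and in 75.5% in the upper set. Single P30 libraries lay far from the others. Genes with a count ranged from 6213 to 15140 per cell at P30 and from 7396 to 10150 at P14. The mitochondrial share reached 37.6% at P30 and 21.9% at P14. The part of such cells in the larger spread was not tested. *Pvalb* is an example among the named genes, with an SD of 582 CPM on a mean of 677 CPM at P30 and of 400 CPM on 2099 CPM at P14.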

How the data were processed

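Each library is 1 hand-picked cell. The authors trimmed the paired-end reads with Trimmomatic 0.39, aligned them to mm10 with HISAT2 2.1.0 and counted them per gene with HTSeq 0.10.0, per the labels and the methods. The deposited values are these whole-number counts, without normalization. FastQC 0.11.9 and StringTie 1.3.5 are also named in the submitters' processing notes. The annotation release, the strand setting and the handling of multi-mapped reads are not given in the sources used here.

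Counts were divided by the total of the cell over all genes and multiplied by 1000000 (CPM), and a pseudocount of 1 CPM was used on the log2 scale. Cells were grouped by the labels. Since the labels name no mouse, no test across cells was run. A gene was called at 2-fold in both sets of totals, divided at 11000000 counts. The calling step was run on simulated counts with large planted differences in genes of higher level. The simulated cells had no effect of set or mouse, so the run does not show how the rule fares with such effects. Genes were named by fixed rules: the 10 called genes per direction with the largest ratio among those detected in 80% or more of cells at the higher age and 2-fold by median, genes with 10th to 90th percentile ranges apart, IHC and OHC markers, and from each list up to 4 called members and the member with the highest mean CPM at either age. Other names are marked in the text, and some genes of the rules are not reported here. The groups, lists and rules were chosen with earlier results of these data known. Intervals of summed counts and shares are exact at 95% only if reads or cells are taken as independent. Alternatives changed the mean, pseudocount, filter, fold, scaling (TMM from edgeR 4.0.16, size factors from DESeq2 1.42.0), depth and cells used. Sequences came from RefSeq tables (GRCm38.p6). Python 3.11.15, numpy 2.4.6, scipy 1.17.1, pandas 2.3.3, matplotlib 3.10.9 and R 4.3.3 were used, with the seed 20230. No pair of libraries was identical (0 pairs).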

Additional observations from a re-analysis of the deposited data

How the results depend on the processing

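No paired analysis was possible because the results come from no test and the cell numbers in the labels do not pair cells of the ages. Summed counts, a pseudocount of 0.1 CPM, TMM, totals without mitochondrial genes, thinned counts and 2 ways of leaving out cells each gave 235 to 344 genes higher and 383 to 565 lower, within 1.5 times the 248 and 428 reported. The median CPM gave 158 higher and 1062 lower, a pseudocount of 5 CPM 92 and 203, DESeq2 size factors 511 and 285, a level of at least 10 CPM 163 and 283, and a 4-fold threshold 30 and 75. No filter gave 378 higher. The lower set alone gave 1299 higher and 1749 lower, the upper set alone 929 and 1165, and all cells together 615 and 896. Cells with *Xist* and no Y counts gave 477 and 762, and cells with Y and no *Xist* counts 508 and 994, from as few as 3 P30 and 3 P14 cells in a set. With limits chosen after seeing the data, cells with *Xist* at least 100 times Y gave 466 higher and cells with the reverse 392 higher and 944 lower. Without the P30 cell that held both *Xist* and Y-linked counts, 247 and 447 genes were called. Genes with percentile ranges apart, 0 higher and 8 lower as reported, became 4 higher and 29 lower in the lower set, 3 higher in the upper set, 1 higher in cells with *Xist* and no Y counts, 21 lower in cells with Y and no *Xist* counts, 15 lower in cells with Y at least 100 times *Xist*, 5 lower with DESeq2 size factors and 4 lower at 4-fold. The sets and the sexes hold fewer cells, and a gene called there needs no second set when 1 set is used alone. The cause of the other shifts was not tested. For the 24 leading genes, 0 of 384 alternative values changed sign and 15 moved by more than the spread between cells. These genes were picked for large differences in both sets of totals. Several alternatives repeat that choice, so a change of sign was unlikely from the start, and its absence is not independent support. List medians have no call, and 56 of their 432 alternative values, in 22 of 27 lists, had the other sign, 14 of them with DESeq2 size factors. *Bag3* was at −0.49 in cells with Y and no *Xist* counts against 2.12 as reported. Depth limits genes of low level, since a count of 3 over the P30 group is 0.00458 CPM.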
